A study of Mus musculus with 9 samples.

Results

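Kit-positive goblet cells of the mouse colonic crypt were compared with the Kit-negative crypt cells sorted beside them, in 6 of the 9 sequenced samples: 3 goblet-enriched and 3 Lgr5-enriched libraries. The libraries were assigned to the populations by their sample labels. Both sorts took cells positive for Epcam and Cd44: those with Kit on the surface form the goblet-enriched population and those without it the Lgr5-enriched one. Both came from untreated adult C57BL/6J mice labelled female, with 3 independent mice in all, and in both the dead cells, doublets and cells with Cd3, Cd16/Cd32, Cd31 or Cd45 were gated out. The gates used no Lgr5 reporter, so the Lgr5-enriched population is every Epcam+ Cd44+ cell without Kit, and each population is enriched rather than pure. The 3 remaining libraries, enterocyte-enriched (Epcam+, Cd44-negative, high Cd66a), entered the fit and are quoted here only for orientation.

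Goblet cells make and release the mucins that form the mucus layer of the gut. At the base of the colonic crypt, goblet cells that carry the receptor tyrosine kinase Kit lie between the Lgr5+ stem cells and are known as a source of niche signals, a place that Paneth cells take in the small intestine. Their secretory load passes through the endoplasmic reticulum, coated vesicles and the Golgi before it is stored in granules. Levels below are in TPM, a transcript abundance corrected for gene length and scaled to a total of 1000000 in each library, and are listed in the order of replicates 1, 2 and 3. A gene was called when its Benjamini-Hochberg adjusted p from limma on log2(TPM + 1) was below 0.05, and every adjusted p below is from that test. The p-values rest on the spread between libraries of the same population, pooled over all 3 populations with 3 libraries each and moderated across genes. That test did not pair libraries by replicate number, and fits with the replicate number as a block are given as alternatives.

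The markers named by the labels were read first. Kit, whose protein was part of the gate, lies on chromosome 5 (75574916-75656722, GRCm38) and stood at 168, 249 and 188 TPM in the goblet-enriched libraries and at 4.05, 11.03 and 11.6 TPM in the Lgr5-enriched ones. The goblet cell mucin Muc2 stood at 9639, 11551 and 13123 TPM against 39.1, 68.7 and 50.3 TPM, and the goblet cell transcription factor Spdef at 763, 641 and 666 TPM against 4.57, 7.80 and 5.54 TPM. Lgr5, a Wnt-pathway receptor of stem cells, went the other way, with 1.00, 6.72 and 7.72 TPM in the goblet-enriched libraries against 31.4, 37.0 and 44.1 TPM. No pair of groups overlapped for any of these 4 genes, and each was called (adjusted p = 4.02e-05, 1.6e-07, 1.6e-07 and 0.00242). Epcam, carried by both gates, gave an adjusted p of 0.602, with a mean of 1735 ± 209 TPM (SD, n = 3) in goblet-enriched and 1865 ± 152 TPM (SD, n = 3) in Lgr5-enriched libraries. Cd44 was present in both but fell, from 89.3, 49.6 and 87.8 TPM in Lgr5-enriched to 31.9, 20.7 and 25.4 TPM in goblet-enriched libraries (adjusted p = 0.00478).

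Markers of other cell types were read next. Mast cells carry Kit, and 1 of the 5 tested leukocyte markers (20.0%) was called higher, against 10.7% of all genes. It was the mast cell protease gene Cma1, at 48.6, 18.1 and 14.03 TPM against 0.445, 0.767 and 0.330 TPM. The other mast cell genes Cpa3, Mcpt4, Fcer1a and Ms4a2 were listed at 0 in all 6 libraries, as were Cd4 and Cd8a, and 20 of the 27 leukocyte markers in the table were below 1 TPM in every one. Of 20 stromal and endothelial markers 15 were below 1 TPM throughout, and Ano1, a calcium-activated chloride channel of the interstitial cells of Cajal, was called higher at 81.4, 69.3 and 72.8 TPM against 19.8, 22.7 and 23.1 TPM. Ano1 stood at 151 to 235 TPM in the enterocyte-enriched libraries, and Etv1, another interstitial cell gene, was below 1 TPM in all 6. Tuft cell markers summed to 1725 to 2949 TPM in goblet-enriched and 719 to 989 TPM in Lgr5-enriched libraries, most of it Cd24a. Of 10 tuft cell markers tested 4 (40.0%) were called higher (Cd24a, Avil, Rgs13 and Sh2d7) and 0 lower, against 10.7% and 23.6% of all genes. Over the alternatives to the processing 1 to 5 were called higher and 0 to 1 lower. Avil, an actin-binding protein of tuft cells, stood at 4.39, 4.75 and 15.3 TPM against 1.74, 1.09 and 1.46 TPM (adjusted p = 0.00903). The tuft cell cytokine gene Il25 was at 0, and Ptgs1, Gfi1b and Chat were below 1 TPM in all 6. Enteroendocrine markers summed to 92.3 to 146.5 TPM in goblet-enriched and 231.6 to 398.5 TPM in Lgr5-enriched libraries, and Paneth cell markers to 343.9 to 2218 TPM against 16.7 to 36.6 TPM, with 8 of 15 at 0. Colonocyte markers summed to 3526 to 4297 TPM in goblet-enriched and 5080 to 5240 TPM in Lgr5-enriched libraries. Single colonocyte markers were called in both directions, 3 of 24 tested (12.5%) higher and 3 (12.5%) lower, against 10.7% and 23.6% of all genes. Guca2b and Scnn1a were among those called higher, and Mep1a and Emp1 among those called lower. Under the alternatives 2 to 3 colonocyte markers were called higher and 1 to 9 lower. A raised marker sum does not by itself show that cells of that type were present. The part that such cells had, if any, in the results was not tested. In bulk samples fewer cells of a type and less RNA per cell cannot be told apart.

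Read totals in genes ran from 11.2 M to 26.8 M. Lgr5-enriched replicate 1 was the deepest and stood apart in the ribosomal RNA precursor Rn45s, with 49046 TPM where the other 5 compared libraries held 2356 to 5181 TPM. All 6 compared libraries matched their sex label, with Xist at 110 to 204 TPM and 4 Y-linked genes at no more than 0.32 TPM, whereas enterocyte-enriched replicate 1 did not (Xist at 0.13 TPM), and results without that library are in the closing section. Across genes, Pearson's r of the log2 levels was 0.958 to 0.981 within goblet-enriched, 0.955 to 0.983 within Lgr5-enriched and 0.868 to 0.910 between the populations, over 12888 genes that are not independent replicates.

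The populations differed across much of the transcriptome. Of 12888 genes tested, 4423 (34.3%) were called, 1384 (10.7%) of them higher and 3039 (23.6%) lower in the goblet-enriched libraries. The rises were fewer and larger: 217 genes called higher and 80 called lower differed at least 10-fold by mean TPM, and 30 against 7 at least 100-fold. The genes called higher held 29.76%, 28.65% and 30.56% of all TPM in the goblet-enriched libraries and 8.34%, 8.75% and 8.68% in the Lgr5-enriched ones. The median of all genes lay at -0.26 on the log2 scale of TPM, which sums to the same total in each library, at -0.19 without the 50 most abundant genes and at -0.05 after median-of-ratios scaling, so falls of that size are relative to the scale used. With median-of-ratios scaling 1839 genes (14.3%) were called higher and 1549 (12%) lower, which moved the share of calls that were higher from 31.3% to 54.3%, and with the replicate number as a block 1794 were called higher and 4563 lower. Without Lgr5-enriched replicate 3 the calls fell to 1089 higher and 1571 lower.

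**Figure D1:**
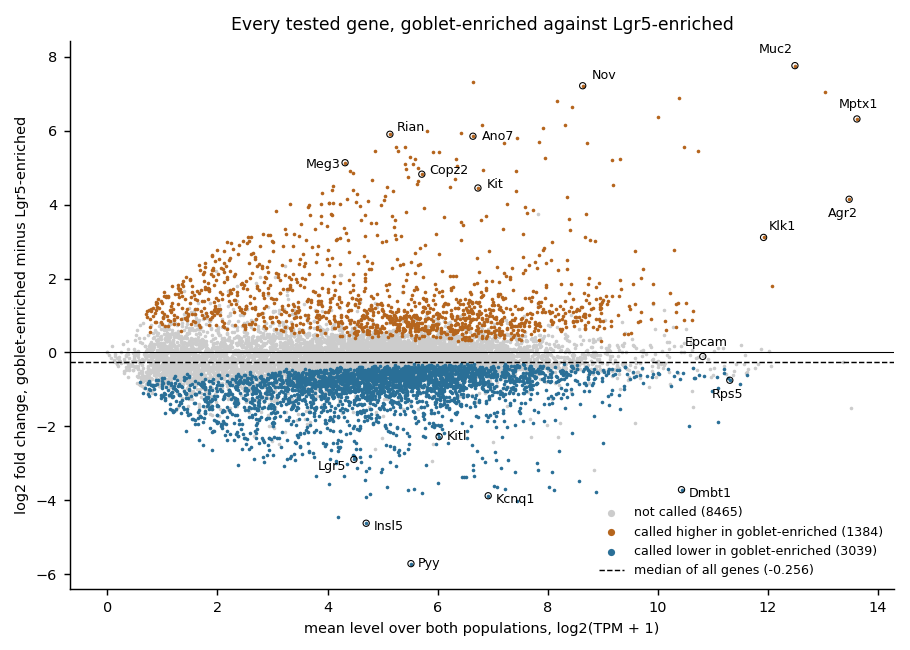
Log2 fold change of each of 12888 tested genes (vertical, goblet-enriched minus Lgr5-enriched) against its mean level over both populations as log2(TPM + 1) (horizontal), with the 1384 genes called higher in brown and the 3039 called lower in blue. The rises reach farther from 0 than the falls, and the dashed median of all genes lies at -0.26.

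Of the 43 tested genes on a list of well-known goblet and secretory genes 42 were called higher, and of 27 well-known stem, Wnt and Notch genes 18 were called lower and 1 higher. Outside these lists, the 25 largest rises were taken among called genes of at least 10 TPM whose libraries did not overlap between the populations. They joined secreted proteins, lipid enzymes, Rap and Rab GTPase regulators and an imprinted gene cluster. Nov, a secreted matricellular protein of the CCN family, stood at 476, 1221 and 668 TPM in goblet-enriched and at 2.31, 6.19 and 3.98 TPM in Lgr5-enriched libraries, a 190-fold difference of means (log2 fold change 7.22 ± 0.90 SE, adjusted p = 0.000513). Ano7, a member of the anoctamin membrane protein family (chromosome 1, 93373930-93404303), varied least, at 187, 200 and 198 TPM against 2.29, 2.31 and 2.60 TPM (log2 fold change 5.85 ± 0.12, adjusted p = 3.55e-08). Every goblet-enriched library lay far above every Lgr5-enriched one for both genes. Hepacam2, an adhesion protein of the immunoglobulin superfamily, stood at 655, 700 and 529 TPM against 5.36, 10.9 and 7.94 TPM.

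Several of these 25 genes encode small GTPases or their regulators. Rapgef3, the cyclic AMP-activated exchange factor for Rap known as Epac1, stood at 65.4, 82.9 and 72.5 TPM against 0.600, 0.592 and 0.555 TPM, a 126-fold difference (adjusted p = 1.62e-07). Rap1gap, which switches Rap1 off, stood at 414, 530 and 495 TPM against 10.3, 12.9 and 11.5 TPM, a 41.3-fold difference (adjusted p = 1.6e-07). Activator and inactivator of the same GTPase were thus both high in the goblet-enriched libraries and low in the Lgr5-enriched ones. The Ras-like GTPase gene Rasd2 ranged from 66.6 to 180 TPM against 0.273 to 2.64 TPM, Rep15, a Rab15 effector, from 119 to 191 TPM against 1.26 to 5.67 TPM, and Sytl2, a Rab27 effector of secretory granules, from 78.7 to 115 TPM against 1.11 to 1.83 TPM.

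Others of the 25 belong to enzyme families. Pla2g2f and Pla2g2a are genes of the secreted phospholipase A2 family, but GENCODE types Pla2g2a as a polymorphic pseudogene, and the gene is known to be disrupted in C57BL/6 mice, so its value is of a transcript and not of an enzyme. Pla2g2f stood at 283, 316 and 262 TPM against 2.99, 6.09 and 5.24 TPM, and Pla2g2a at 714, 73.3 and 203 TPM against 30.6, 1.56 and 3.80 TPM. Pla2g2f varied little among the goblet-enriched libraries, whereas Pla2g2a spread widely in both populations, its lowest goblet-enriched library still above its highest Lgr5-enriched one. Clps, the pancreatic lipase cofactor colipase, ranged from 29.1 to 125 TPM against 0 to 2.92 TPM, and the lipid phosphate phosphatase gene Ppap2a from 185 to 237 TPM against 4.02 to 10.6 TPM. Hpd, an enzyme of tyrosine breakdown, stood at 386, 494 and 461 TPM against 4.22, 11.05 and 8.85 TPM. B3gnt6, which builds the core 3 O-glycans of intestinal mucin, stood at 33.3, 123 and 68.0 TPM against 0.324, 0.784 and 0.525 TPM, and St6gal1, a sialyltransferase, at 60.8, 142 and 84.0 TPM against 0.614, 3.58 and 2.24 TPM. The remaining rises were Cbfa2t3 (a transcriptional corepressor), Mt3 (a metallothionein), Anxa13 (an annexin), Col8a1 (a short-chain collagen), Gpr20 (an orphan receptor), Sval1, Gm1123, Rian, Meg3 and AF357359. Over the 25 genes the Lgr5-enriched libraries held medians of 0.81%, 1.98% and 1.33% of the goblet-enriched mean, and the enterocyte-enriched libraries 13.56% to 18.37%. All 25, picked as called genes in these data, were called in each of the 19 alternatives to the processing, which use the same libraries.

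**Figure D2:**
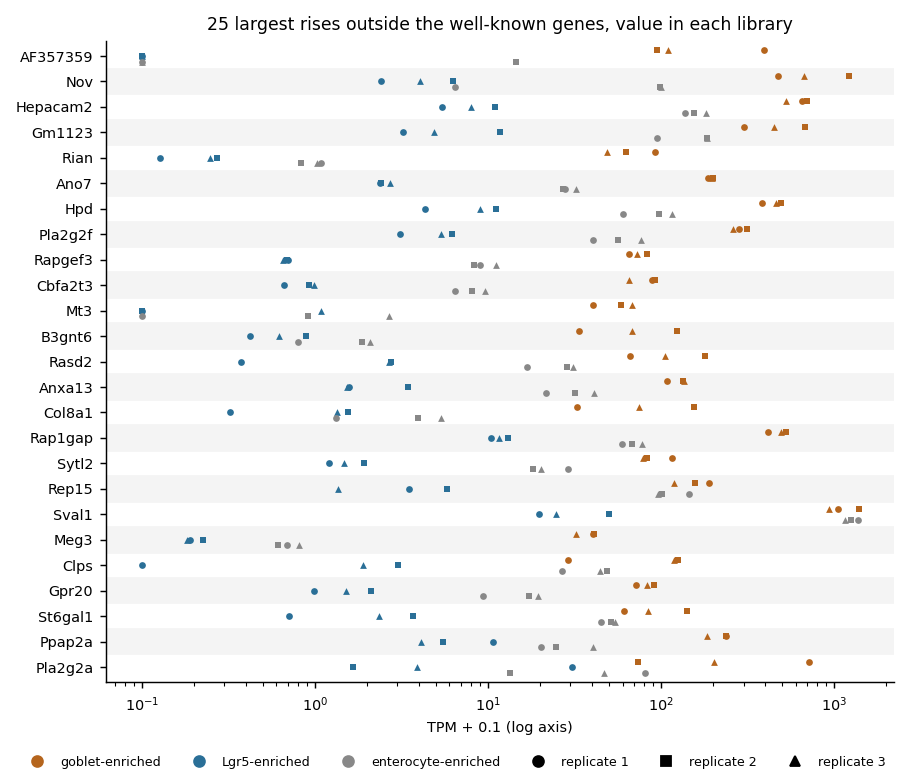
TPM in each library (log axis, 0.1 added) of the 25 genes with the largest rises outside the well-known lists; color marks the population and shape the replicate. The brown goblet-enriched points lie above the blue Lgr5-enriched points in each of the 25 rows because only non-overlapping genes were chosen. Pla2g2a spreads widely between replicates in both.

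Transcripts of an imprinted region of chromosome 12 were found mainly in the goblet-enriched libraries. The Dlk1-Meg3 region is expressed from only 1 parental copy: the maternal copy gives the long noncoding RNAs Meg3, Rian and Mirg, which host small nucleolar RNAs and microRNAs, and the paternal copy gives the membrane protein Dlk1 and the retrotransposon-derived gene Rtl1. Meg3 (109541001-109571726) stood at 40.5, 40.9 and 32.0 TPM against 0.089, 0.127 and 0.082 TPM, a 380-fold difference of means (log2 fold change 5.13 ± 0.18, adjusted p = 4.1e-07). Rian (109603940-109661716) stood at 92.8, 62.5 and 48.9 TPM against 0.027, 0.173 and 0.149 TPM (log2 fold change 5.90 ± 0.24, adjusted p = 9.29e-07). In reads, Rian had 1895, 1180 and 904 in the goblet-enriched libraries and 1, 3 and 3 in the Lgr5-enriched ones, so the low side is a handful of reads.

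Other genes of the region were looked up after these 2 had been seen. Mirg (109729764-109749460) had 63, 31 and 33 reads against 0, 0 and 0, and stood at 8.50, 4.52 and 4.92 TPM (adjusted p = 7.13e-05). Dlk1 (109452823-109463336) stood at 9.55, 8.98 and 6.24 TPM against 0.020, 0.300 and 0.369 TPM (log2 fold change 2.90 ± 0.24, adjusted p = 5.24e-05), and Rtl1, not tested, had 5, 7 and 8 reads against none. Of 73 symbols that GENCODE places between the start of Dlk1 and the end of Dio3, 23 were above 0 in some library and 5 were tested: Dlk1, Meg3, Rian, Mirg and the small nucleolar RNA DQ267102, which rests on 2, 1 and 2 reads against none. These 5 were below 1 TPM in every other library and passed the filter through the goblet-enriched libraries alone, so their shared direction is no support of its own. AF357359, a further tested small nucleolar RNA, not among the 73, that RefSeq places inside Rian (109650709-109650738), had 67, 15 and 17 reads against none and was at least 12.4-fold higher, counting 3 reads per library as the floor. Its reads and those of its host cannot be told apart. Dio3 and Dio3os, at the far end of the region, were not tested: they had at most 3 reads in any of the 6 libraries, with some in both populations. In the enterocyte-enriched libraries Meg3 stood at 0.515 to 0.713 TPM and Rian at 0.729 to 0.988 TPM, below every goblet-enriched library and above every Lgr5-enriched one.

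Promoter sequences of RefSeq (GRCm38.p6) were matched by symbol for 15 of the 25 rises and 16 of the 25 largest falls, and for 9643 of the 12888 genes tested. The 250 bases before the annotated start were searched on both strands for 4 words, first the E-box words CAGCTG (its own reverse complement) and CAGATG, since the secretory lineage factor Atoh1 belongs to the basic helix-loop-helix proteins that bind E-boxes. These 2 words do not overlap each other in the sequences shown. CAGCTG was in 1119 of all 9643 promoters (11.6%), in 139 of 1045 promoters of genes called higher (13.3%) and in 233 of 2316 of genes called lower (10.1%). It was in 5 of the 15 rises and 2 of the 16 falls. CAGATG was in 9.7% of all promoters, 12.1% of those called higher and 9.3% of those called lower, and in 4 of the 15 rises and 3 of the 16 falls. Another E-box word, CACGTG, was in 8.5% of all promoters, 7.7% of those called higher and 8.5% of those called lower, and in 1 of the 15 rises and 1 of the 16 falls. GGATGT, which is no E-box, was in 7.7%, 7.8% and 7.6%, and in 0 of the 15 rises and 1 of the 16 falls. These are matches of letters. Meg3 is shown as a gene of the imprinted cluster and holds neither of the first 2 words. Pla2g2f and Sval1 are shown as rises whose promoters hold both of them, in capitals. Each sequence runs 5′ to 3′ on the strand of the gene.
Meg3, chr12:109540746-109540995, plus strand: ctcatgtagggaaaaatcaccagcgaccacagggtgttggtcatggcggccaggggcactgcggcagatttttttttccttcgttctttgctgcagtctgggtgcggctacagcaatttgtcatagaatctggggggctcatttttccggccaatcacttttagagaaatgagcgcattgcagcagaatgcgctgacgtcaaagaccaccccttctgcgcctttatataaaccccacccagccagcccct
Pla2g2f, chr4:138757599-138757848, minus strand: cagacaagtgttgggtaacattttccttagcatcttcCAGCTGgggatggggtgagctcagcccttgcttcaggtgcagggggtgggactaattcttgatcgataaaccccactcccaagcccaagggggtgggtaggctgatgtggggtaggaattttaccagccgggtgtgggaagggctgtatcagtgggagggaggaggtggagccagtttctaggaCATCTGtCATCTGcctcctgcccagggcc
Sval1, chr6:41951378-41951627, plus strand: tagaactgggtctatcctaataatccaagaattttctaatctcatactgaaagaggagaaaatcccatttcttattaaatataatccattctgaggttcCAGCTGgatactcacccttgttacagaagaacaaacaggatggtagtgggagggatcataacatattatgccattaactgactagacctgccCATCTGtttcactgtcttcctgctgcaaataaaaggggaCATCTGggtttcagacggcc

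The receptor that defined the gate and its ligand lay on opposite sides. Kitl (chromosome 10, 100015630-100100416), which encodes stem cell factor, the ligand of Kit, stood at 20.7, 20.1 and 23.0 TPM in goblet-enriched and at 121, 97.7 and 103 TPM in Lgr5-enriched libraries. It was 5.04-fold lower by mean TPM where Kit was high (log2 fold change -2.28 ± 0.13, adjusted p = 6.97e-06), and within replicates the ratio was 5.83, 4.86 and 4.49. Kit itself was 41.6-, 22.5- and 16.2-fold higher within replicates. The enterocyte-enriched libraries lay between, at 51.5 to 60.6 TPM of Kitl.

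Among 60 tested genes of Kit signalling, 2 were called higher and 11 lower, shares of 3.3% and 18.3% that are each below the shares of all genes. The genes called higher were Fes, a cytoplasmic tyrosine kinase, and Mitf, the transcription factor downstream of Kit in melanocytes and mast cells. Mitf stood at 3.73, 2.56 and 3.40 TPM against 0.296, 0.757 and 0.411 TPM (log2 fold change 1.51 ± 0.21, adjusted p = 0.00102). Those called lower included the guanine nucleotide exchange factor gene Vav3, at 2.79, 4.43 and 5.75 TPM against 22.1, 20.1 and 21.5 TPM, the adaptor gene Dok4 and Pik3r1, the regulatory subunit of PI3-kinase, at 33.7, 47.6 and 35.4 TPM against 75.6, 102 and 93.2 TPM. The counts moved with the processing: 5 higher and 5 lower with median-of-ratios scaling, 3 and 22 with the replicate block, and 6 lower without Lgr5-enriched replicate 2 or 3. Leaving out goblet-enriched replicate 2 or 3 gave 7 lower and 1 higher. The shares of all genes moved too: 14.3% higher and 12% lower with median-of-ratios scaling, and 13.9% and 35.4% with the replicate block. Of all genes, 16.9% and 12.2% were called lower without Lgr5-enriched replicate 2 and 3, and 16.3% and 17.7% without goblet-enriched replicate 2 and 3.

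Lists of the secretory route, from entry into the endoplasmic reticulum to glycan capping, held more genes called higher than the 10.7% of all genes. Of 37 tested genes of the translocon, signal peptidase and oligosaccharyltransferase, 29 (78.4%) were called higher and 1 lower, with a median log2 fold change of 0.79. They included Srpr, the receptor that docks ribosomes at the membrane, at 373, 296 and 307 TPM against 131, 123 and 126 TPM, and Ostc, an oligosaccharyltransferase subunit, at 856, 457 and 523 TPM against 265, 152 and 176 TPM. Without Lgr5-enriched replicate 3 the count called higher was 19, and 8.4% of all genes were called higher.

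Vesicle traffic between the endoplasmic reticulum and the Golgi showed larger single rises. Of 57 tested coat and cargo receptor genes 40 (70.2%) were called higher and 4 lower. Copz2, an alternative subunit of the COPI coat, stood at 76.3, 105 and 117 TPM against 0.206, 5.55 and 4.39 TPM (log2 fold change 4.82 ± 0.59, adjusted p = 0.000456). Kdelr3, which returns escaped chaperones to the endoplasmic reticulum, stood at 245, 169 and 196 TPM against 20.0, 17.5 and 11.04 TPM, a 12.6-fold difference. Mia3, which loads bulky cargo such as collagen into COPII carriers, stood at 316, 284 and 216 TPM against 55.0, 59.3 and 47.7 TPM. Single members such as these changed far more than the list's median, a log2 fold change of 0.82.

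Of 36 genes of the unfolded protein response and of endoplasmic reticulum-associated degradation 25 (69.4%) were called higher and 0 lower by limma, with a median log2 fold change of 1.04. No member was lower at an unadjusted p under 0.05, and limma-voom on the recovered reads called 0 lower as well. Herpud1, a degradation component, stood at 1246, 999 and 809 TPM against 297, 246 and 228 TPM. Chac1, a glutathione-degrading enzyme induced by that response, stood at 42.2, 47.5 and 15.5 TPM against 4.33, 1.71 and 1.13 TPM. Its goblet-enriched replicate 3 was lowest but still above all Lgr5-enriched libraries.

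Of 37 tested genes of sulfation, fucosylation and sialylation 26 (70.3%) were called higher and 4 lower. Gal3st2, a galactose sulfotransferase, stood at 47.6, 82.6 and 61.1 TPM against 0.841, 2.68 and 2.31 TPM, and Cmah, which converts the sialic acid Neu5Ac to Neu5Gc, at 32.1, 37.3 and 19.9 TPM against 1.23, 0.353 and 0.946 TPM. Fut9, a fucosyltransferase, went the other way, at 1.36, 3.62 and 4.97 TPM against 32.8, 27.2 and 30.5 TPM (log2 fold change -2.95 ± 0.39, adjusted p = 0.000693). Of 38 granule exocytosis genes 11 (28.9%) rose and 3 fell. Syt7, a calcium sensor of exocytosis, stood at 99.4, 105 and 94.5 TPM against 4.11, 7.64 and 5.68 TPM, and Rab27a, a granule GTPase, at 71.4, 40.7 and 45.7 TPM against 5.26, 4.80 and 4.13 TPM. The Rab GTPase family as a whole gave 8 higher and 3 lower of 45, and 5 higher and 1 lower with only the 6 compared libraries fitted. Without Lgr5-enriched replicate 3 the members called lower were 0 coat genes, 2 glycan genes, 1 exocytosis gene and 1 Rab gene. With median-of-ratios scaling they were 2, 4, 2 and 1. Of all genes 23.6% were called lower, but 12.2% without that replicate and 12% with that scaling. In the translocon list 1 gene was called lower under every alternative.

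**Figure D3:**
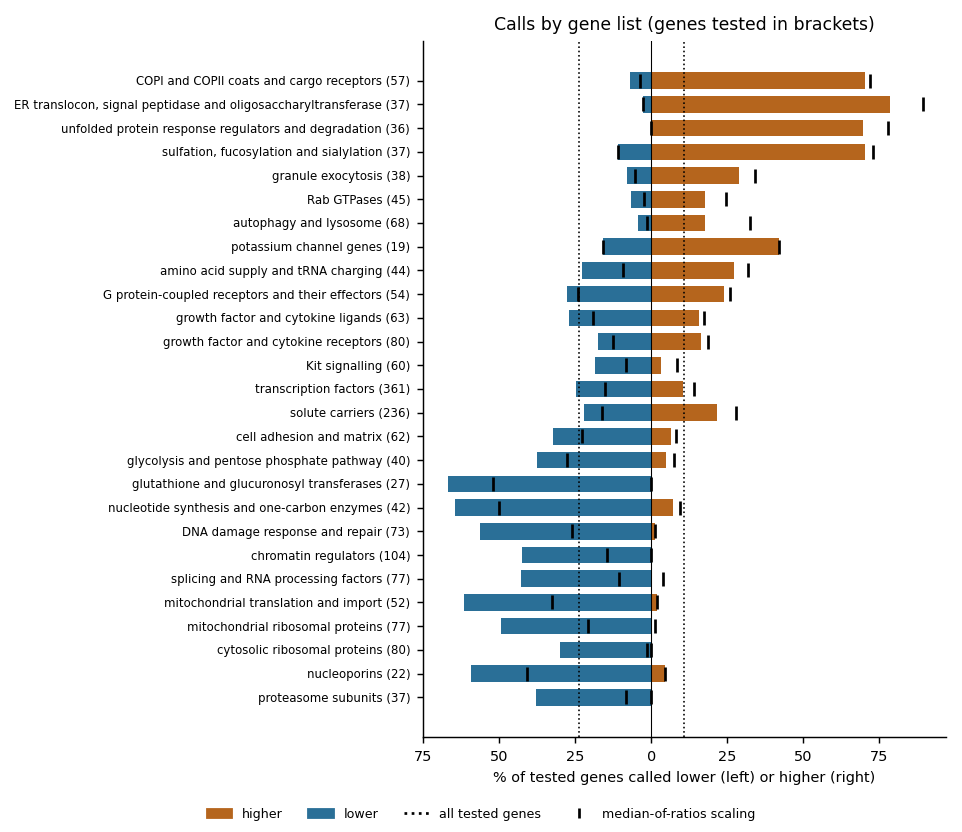
Share of the tested genes of 27 lists called higher (brown, right) or lower (blue, left) in goblet-enriched libraries, with dotted lines at the shares of all tested genes (10.7% higher, 23.6% lower) and black ticks for the shares after median-of-ratios scaling. In the 4 top lists at least 69.4% of genes were called higher, while in the lists at the bottom the shares called lower were smaller under that scaling. The shares of all genes under that scaling, for which no line is drawn, were 14.3% higher and 12% lower.

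Of 44 genes of amino acid supply and tRNA charging 12 (27.3%) were called higher and 10 (22.7%) lower, against 10.7% and 23.6% of all genes. The lower count was 4 with median-of-ratios scaling, 6 with goblet-enriched replicate 2 left out and 5 with Lgr5-enriched replicate 3 left out. Of all genes 12%, 16.3% and 12.2% were called lower under those settings. Pycr1, the last enzyme of proline synthesis, stood at 19.1, 25.2 and 27.9 TPM against 2.17, 2.76 and 2.13 TPM (10.2-fold, adjusted p = 1.51e-05), and the alanine transaminase gene Gpt2 at 31.3, 44.6 and 38.3 TPM against 2.77, 11.1 and 7.35 TPM. Shmt1, which moves 1-carbon units from serine to folate, fell from 148, 193 and 211 TPM to 36.7, 56.7 and 58.8 TPM.

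Ion channel genes were called in both directions. Of 56 tested ion channel genes 18 were called higher and 14 lower, and among 19 potassium channel genes 8 (42.1%) were called higher and 3 lower. Kcnma1, the large-conductance calcium-activated potassium channel, stood at 28.2, 30.7 and 23.8 TPM against 0.269, 0.5 and 0.543 TPM (63.0-fold, adjusted p = 1.72e-06). Kcnk6, a background potassium channel, stood at 180, 128 and 150 TPM against 8.22, 3.03 and 4.34 TPM, and Kcnh3 at 63.8, 80.5 and 92.4 TPM against 2.94, 5.58 and 5.94 TPM. Kcnq1 fell, with values given below. Without Lgr5-enriched replicate 3 the channels called lower were 9, and 12.2% of all genes were called lower.

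Of 54 genes of G protein-coupled receptors and their effectors 13 (24.1%) were called higher and 15 (27.8%) lower (8 lower without Lgr5-enriched replicate 3). Over all genes the shares were 10.7% and 23.6%, so the share called lower is near that of all genes. Without that replicate 12.2% of all genes were called lower. Ffar2, a receptor for short-chain fatty acids, stood at 76.1, 110 and 101 TPM against 2.07, 2.70 and 4.02 TPM (adjusted p = 9.71e-06). Ramp1, the accessory protein of the receptor for calcitonin gene-related peptide, stood at 119, 226 and 159 TPM against 0.792, 2.46 and 2.11 TPM, a 94.0-fold difference (adjusted p = 7.25e-06). Rgs10, a brake on G protein signalling, fell from 26.2, 13.7 and 9.94 TPM to 0.401, 1.73 and 2.43 TPM.

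Among secreted signals, 10 of 63 growth factor and cytokine genes (15.9%) were called higher and 17 (27.0%) lower, near the 10.7% and 23.6% of all genes. Egf, the ligand that stem cell culture depends on, stood at 10.4, 24.9 and 13.4 TPM against 0.201, 1.26 and 1.01 TPM (19.8-fold, adjusted p = 0.00048). Fgfbp1, which releases fibroblast growth factors from the matrix, fell from 182, 203 and 198 TPM to 14.8, 30.7 and 38.8 TPM (adjusted p = 0.000151). The higher count was 6 without goblet-enriched replicate 2 or 3 or Lgr5-enriched replicate 1 or 3, and the lower count 11 without Lgr5-enriched replicate 3. In those fits 8.4% to 9.2% of all genes were called higher, and 12.2% lower without Lgr5-enriched replicate 3.

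Of 80 receptors 13 (16.2%) were called higher and 14 (17.5%) lower, against 10.7% and 23.6% of all genes. Fzd9, a Wnt receptor, stood at 9.14, 37.8 and 25.3 TPM against 1.14, 1.07 and 1.26 TPM, while Fgfr4 fell from 45.9, 72.7 and 66.2 TPM to 3.68, 14.1 and 13.8 TPM (adjusted p = 0.00209). Tnfrsf23, a decoy receptor, stood at 20.2, 13.5 and 19.7 TPM against 1.80, 1.11 and 0.370 TPM. The 2 chains of the interleukin-13 receptor, named after their values were seen because that cytokine drives goblet cells, were both called: Il13ra1 at 216, 170 and 123 TPM against 62.5, 59.7 and 45.2 TPM (adjusted p = 0.000828) and Il4ra at 37.8, 29.3 and 25.5 TPM against 15.8, 17.2 and 14.6 TPM (adjusted p = 0.00416). Receptor counts were 25 lower with the replicate block, 8 and 8 without Lgr5-enriched replicate 3 and 9 lower without Lgr5-enriched replicate 2. Of all genes 35.4% were called lower with the block and 16.9% without Lgr5-enriched replicate 2. Without Lgr5-enriched replicate 3 the shares were 8.4% higher and 12.2% lower.

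Transcription factors, well-known ones such as Spdef included, were called in both directions. Of 361, 38 were higher and 89 lower, shares of 10.5% and 24.7% that are near those of all genes. Outside the well-known set, the largest rise among factors of at least 5 TPM was Bhlha15, also called Mist1, which enlarges the secretory apparatus. Bhlha15 stood at 39.9, 27.0 and 27.1 TPM against 2.19, 0.590 and 0.406 TPM (log2 fold change 4.05 ± 0.33, adjusted p = 4.84e-05). Etv5, an ETS factor downstream of receptor tyrosine kinases, stood at 167, 159 and 132 TPM against 23.2, 11.6 and 19.5 TPM. Neurog3, which specifies enteroendocrine cells, was also higher, at 3.19, 7.75 and 7.92 TPM against 0.249, 1.34 and 0.807 TPM (adjusted p = 0.00284). Hif3a, Tead4, Ddit3, Nfatc2, Six5 and Prdm14 completed the 10 largest with Id4.

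Genes of the Id family, inhibitors of basic helix-loop-helix factors, were called in both directions. Id4 stood at 45.8, 9.59 and 13.6 TPM against 0.923, 0.249 and 0.321 TPM (log2 fold change 3.72 ± 0.48, adjusted p = 0.000631). Id1 fell from 151, 198 and 183 TPM to 11.5, 32.5 and 50.8 TPM (log2 fold change -2.67 ± 0.52, adjusted p = 0.00486), and Id3 from 109, 117 and 97.9 TPM to 17.8, 32.8 and 26.2 TPM (adjusted p = 0.000562). The groups did not overlap for any of the 3. Id1 and Id3 are targets of bone morphogenetic protein signalling, and both were higher still in the enterocyte-enriched libraries, at 350 to 1053 TPM and 226 to 403 TPM. Clock, a core circadian factor, fell from 96.6, 84.8 and 77.7 TPM to 35.2, 26.8 and 24.8 TPM (adjusted p = 0.00017). The number of factors called lower was 55 with median-of-ratios scaling, 59 without Lgr5-enriched replicate 2 and 51 without Lgr5-enriched replicate 3. Of all genes 12%, 16.9% and 12.2% were called lower under those settings, so calls were lost among all genes too.

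Hormone genes led the falls. The colonic L-cell hormones Pyy (peptide YY), Insl5 and Gcg (the glucagon-like peptide precursor) were nearly absent from the goblet-enriched libraries: Pyy stood at 0, 0 and 3.10 TPM against 94.1, 50.02 and 121 TPM, and Insl5 at 0.982, 0.531 and 1.35 TPM against 45.9, 30.6 and 70.8 TPM. Gcg stood at 0.804, 0.174 and 0.710 TPM against 30.6, 22.7 and 48.5 TPM (adjusted p = 0.0002, 3.98e-05 and 5.97e-05). Enteroendocrine cells carry Epcam and can lie within either gate. Of the 19 enteroendocrine markers tested, 5 (26.3%) were called lower and 3 (15.8%) higher (Neurog3, Nkx2-2 and Pcsk1), against 23.6% and 10.7% of all genes.

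The other large falls included transport and defence genes. Kcnq1, the potassium channel of the basolateral membrane (chromosome 7, 143106362-143427042), stood at 1.85, 27.5 and 35.0 TPM in goblet-enriched and at 137, 239 and 279 TPM in Lgr5-enriched libraries (log2 fold change -3.88 ± 0.81, adjusted p = 0.00678). Slc5a8, a sodium-coupled carrier of butyrate and other monocarboxylates, stood at 9.11, 19.6 and 33.3 TPM against 174, 265 and 275 TPM (adjusted p = 0.0002). Dmbt1, a secreted scavenger glycoprotein of mucosal defence, stood at 118, 179 and 332 TPM against 2877, 2078 and 2680 TPM (adjusted p = 0.00051). By mean TPM they fell 10.2-fold, 11.5-fold and 12.1-fold, and in each goblet-enriched replicate 1 was the lowest library.

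Several of the 25 encode metabolic enzymes. Acsm3, an acyl-CoA synthetase, stood at 5.34, 31.5 and 36.8 TPM against 256, 377 and 336 TPM, and the urea cycle enzyme Otc at 0.232, 3.76 and 5.30 TPM against 26.5, 61.0 and 60.2 TPM. Nqo1, a quinone reductase, stood at 1.13, 8.18 and 14.3 TPM against 79.0, 75.4 and 103 TPM. Sult1a1, a phenol sulfotransferase, stood at 7.55, 108 and 139 TPM against 261, 1269 and 1024 TPM. It lost its call without Lgr5-enriched replicate 2 (adjusted p = 0.0603) or 3 (adjusted p = 0.0674), as did Hao2, a peroxisomal hydroxyacid oxidase (0.0629 and 0.0688). Hsd3b3, Aadac, Akr1b8 and the unnamed 5033404E19Rik were among these falls too. Mpzl2 and Mpzl3 (adhesion proteins of the myelin protein zero-like family), Tm4sf20, Mall, Nxpe4, B4galnt3, Adamts15, Nlrp6 (a microbial sensor) and Pde3a (a cyclic AMP phosphodiesterase) were others of the 25.

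Of 27 tested glutathione and glucuronosyl transferase genes 18 (66.7%) were called lower and 0 higher by limma, with a median log2 fold change of -1.02 against -0.26 for all genes. At an unadjusted p under 0.05 limma gave 19 lower and 0 higher, and limma-voom on the recovered reads also called 0 higher. Gsta3 stood at 8.60, 7.77 and 16.1 TPM against 132, 54.7 and 108 TPM, and Ugt2b5 at 0.093, 0.901 and 0.409 TPM against 5.82, 13.5 and 5.81 TPM. Of 34 cytochrome P450 genes 8 (23.5%) were called lower and 1 higher, a share called lower that is near the 23.6% of all genes. Near-identical paralogs in these families share reads, so the split between single members is uncertain.

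**Figure D4:**
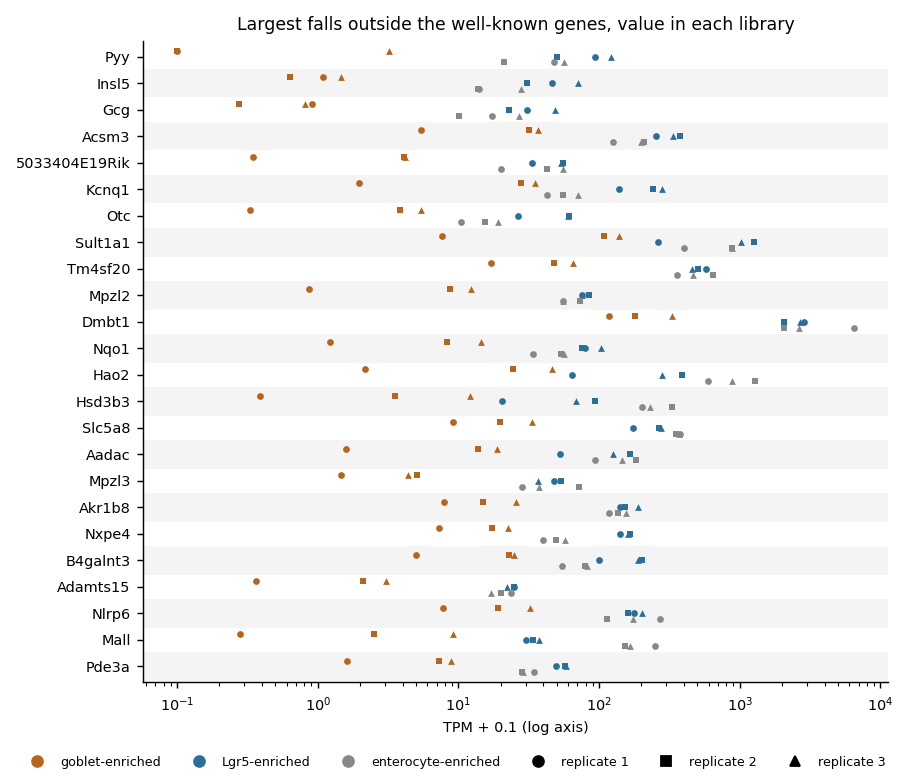
TPM in each library (log axis, 0.1 added) of 24 of the 25 genes with the largest falls outside the well-known lists; color marks the population and shape the replicate. The brown goblet-enriched points lie below the blue Lgr5-enriched points in each row because only non-overlapping genes were chosen. The brown circle (replicate 1) is the lowest of the 3 goblet-enriched points in the 21 rows from Acsm3 down.

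The remaining level of these 25 genes differed between the goblet-enriched libraries. As a share of the Lgr5-enriched mean it had a median of 1.32% in replicate 1, 9.54% in replicate 2 and 14.53% in replicate 3. The enterocyte-enriched libraries held medians of 62.55%, 80.67% and 79.0% of that mean, so most of these genes were not particular to the Lgr5-enriched population. Apart from the 3 hormone genes, replicate 1 was the lowest of the goblet-enriched libraries in 22 of 22 genes and replicate 3 the highest in 21. Lgr5 itself followed that order, at 1.00, 6.72 and 7.72 TPM. Without goblet-enriched replicate 1 the median log2 fold change of the 25 was -2.90 in place of -3.68, and all 25 were still called. The opposite remainder was small in all Lgr5-enriched libraries, as given for the 25 rises. Whether the share of Kit-negative cells in the sort differed between replicates was not tested.

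Growth and biosynthesis genes were lower in the goblet-enriched libraries, by less and with more dependence on the scale. Of the nucleotide synthesis and 1-carbon enzymes, 27 of 42 (64.3%) were called lower and 3 higher, with a median log2 fold change of -0.85. The lower count was 21 after median-of-ratios scaling and 16 without Lgr5-enriched replicate 3. Of all genes 23.6% were called lower, 12% after that scaling and 12.2% without that replicate. The purine synthesis genes Paics and Ppat fell from 206, 207 and 220 TPM to 34.6, 63.6 and 60.7 TPM and from 42.6, 32.2 and 29.1 TPM to 6.96, 10.2 and 6.71 TPM. Of 22 nucleoporin genes 13 were called lower and 1 higher, and of 40 glycolysis and pentose phosphate genes 15 lower and 2 higher.

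Of 73 DNA repair genes 41 (56.2%) were called lower and 1 higher, but 19 lower with median-of-ratios scaling, 21 without goblet-enriched replicate 2 and 14 without Lgr5-enriched replicate 3. The share of all genes called lower was 23.6%, and 12%, 16.3% and 12.2% under those 3 settings. Chek2, a checkpoint kinase, stood at 15.1, 15.9 and 16.6 TPM against 48.3, 38.4 and 52.1 TPM, and the DNA ligase gene Lig1 at 24.7, 30.8 and 50.05 TPM against 85.6, 78.0 and 123 TPM. Of 104 chromatin regulators 44 (42.3%) were called lower, and 15 with that scaling (under which 12% of all genes were), 25 without goblet-enriched replicate 2, 24 without goblet-enriched replicate 3 and 18 without Lgr5-enriched replicate 3. Hmga2, a chromatin protein of growing tissue, stood at 5.04, 7.62 and 7.32 TPM against 24.7, 27.8 and 23.1 TPM, and Cbx2, a Polycomb subunit, at 1.22, 5.22 and 4.09 TPM against 12.3, 13.7 and 14.7 TPM.

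For the ribosome and other large complexes the counts of calls depended strongly on the setting. The share of all genes called lower moved too, to 12% with median-of-ratios scaling and 35.4% with the replicate block. With 1 compared library left out it lay between 12.2% (without Lgr5-enriched replicate 3) and 22.1% (without Lgr5-enriched replicate 1). Of 80 cytosolic ribosomal protein genes 24 (30.0%, against 23.6% of all genes) were called lower and 0 higher by limma. At an unadjusted p under 0.05 limma gave 45 lower and 0 higher, and limma-voom called 0 higher. The summed level was 63230 to 75510 TPM in goblet-enriched and 97780 to 105000 TPM in Lgr5-enriched libraries. With median-of-ratios scaling 1 was called lower, with the replicate block 50, and without 1 compared library between 3 (without Lgr5-enriched replicate 2 or 3) and 10 (without Lgr5-enriched replicate 1). Mitochondrial ribosomal proteins gave 38 of 77 lower (16 with that scaling, 20 without goblet-enriched replicate 2, 24 and 19 without Lgr5-enriched replicate 1 and 3), splicing factors 33 of 77 (8 with that scaling, 20 without goblet-enriched replicate 2 or 3 and 15 without Lgr5-enriched replicate 3) and proteasome subunits 14 of 37 (3 with that scaling, 27 with the replicate block, 5 without goblet-enriched replicate 2, 8 and 6 without Lgr5-enriched replicate 1 and 3). Mrps22, a mitochondrial ribosomal protein, is an example that kept its call, at 27.4, 23.5 and 29.3 TPM against 81.8, 57.2 and 69.6 TPM.

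The rises largest in mean TPM were in secretory proteins. Mptx1, a mucosal pentraxin, rose most in mean TPM, at 8738, 28440 and 36946 TPM against 69.1, 576 and 446 TPM, and was the most abundant transcript of goblet-enriched replicates 2 and 3. Agr2, the disulfide isomerase that folds Muc2, was the most abundant in replicate 1, at 29642, 16332 and 18679 TPM against 1295, 1146 and 1098 TPM. Klk1, tissue kallikrein, stood at 4508, 8927 and 7077 TPM against 313, 1425 and 982 TPM. Oit1 stood at 5833, 7250 and 6999 TPM against 1399, 2279 and 2145 TPM. On the falling side the largest in mean TPM included Adh1, an alcohol dehydrogenase, at 527, 1230 and 1176 TPM against 2687, 3758 and 3685 TPM, and Dmbt1.

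Some of these abundant products varied alike by replicate number in the 3 populations, although enterocyte-enriched replicate 1, against its sex label, may not come from the mouse of the other replicate 1 libraries. Retnlb, a goblet cell protein toxic to bacteria, stood at 3703, 255 and 3982 TPM in goblet-enriched, 17.6, 3.85 and 23.7 TPM in Lgr5-enriched and 424, 47.1 and 557 TPM in enterocyte-enriched libraries: replicate 2 was lowest in all 3 populations. Within replicates the goblet-enriched level was 210-, 66.3- and 168-fold that of the Lgr5-enriched one. Pla2g2a was highest in replicate 1 of each population, with within-replicate ratios of 23.3, 47.0 and 53.4. Mptx1 and Klk1 were lowest in replicate 1 of each population, and the within-replicate ratios of Mptx1 were 127, 49.3 and 82.9. Kitl ranged from 20.1 to 23.0 TPM over the goblet-enriched libraries. Why the replicates differed was not tested. Mptx1, Klk1 and Pla2g2a belong to families of similar genes, so reads may be shared with a paralog.

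**Figure D5:**
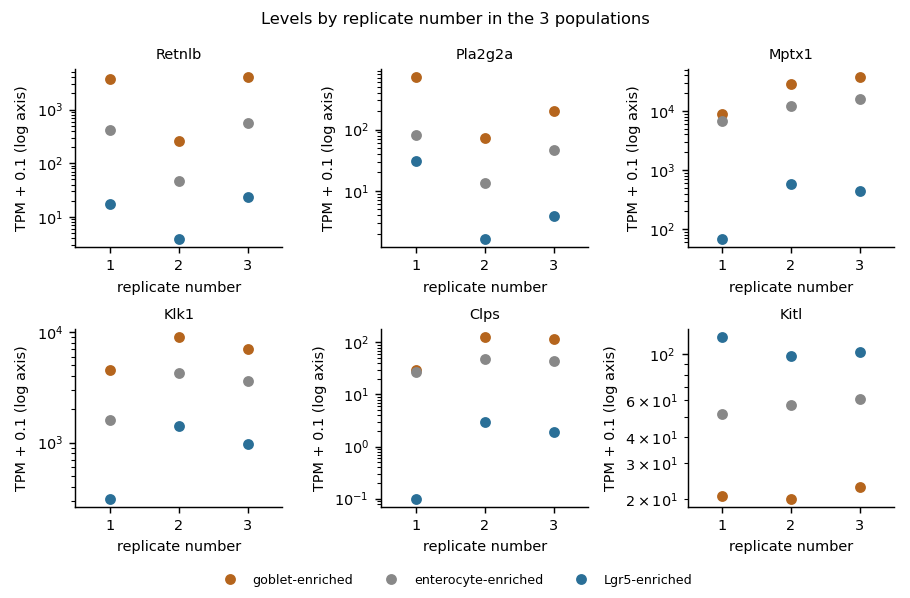
TPM (log axis, 0.1 added) by replicate number for 6 genes in the goblet-enriched (brown), enterocyte-enriched (gray) and Lgr5-enriched (blue) libraries. Retnlb is lowest in replicate 2 and Mptx1 and Klk1 in replicate 1 of all 3 populations, while Kitl stays between 20.1 and 23.0 TPM in the goblet-enriched libraries.

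The gasdermin genes Gsdmc2, Gsdmc3 and Gsdmc4, neighbours on chromosome 15 (63824346-63912297), were among the 5 called genes with the largest spread between goblet-enriched libraries, with Retnlb and Sult1a1. These gasdermin genes are similar to each other, so reads may be shared among them and the split between single members is uncertain. Gsdmc4, a pore-forming protein family member, stood at 8.08, 51.3 and 194 TPM against 155, 656 and 1214 TPM (log2 fold change -3.47 ± 1.03, adjusted p = 0.0297). Its level overlapped between the populations, yet within each replicate it was 19.2-, 12.8- and 6.26-fold lower in the goblet-enriched library. Leaving out goblet-enriched replicate 1 or 2 ended the call (adjusted p = 0.0684 and 0.0637), and so did leaving out Lgr5-enriched replicate 2 or 3 (adjusted p = 0.0787 and 0.107). In the enterocyte-enriched libraries it stood at 2390 to 3442 TPM.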

How the data were processed

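RNA from sorted cells was sequenced as poly(A)-selected stranded libraries, per the labels' protocols, on 1 of 2 Illumina instruments. Which instrument served which library was not used here. The authors deposited log2 values, log2(TPM) from 1 TPM upward and TPM minus 1 below it, as the values show. Per the submitters' processing notes, Cufflinks (no version) and mm10 were used; for the aligner, annotation and strand setting of the counting the sources used here give nothing. Values were turned back into TPM, and each library then summed to 1000000. Of 18396 symbols above 0, 18386 (99.95%) gave whole reads within 1e-06, which gave 11.2 M to 26.8 M reads in genes per library. The TPM of 1 read in a gene of 1 kb was 0.0958 to 0.208.

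The 12888 genes that reached 1 TPM in 3 or more of 9 libraries were tested, and 5508 others above 0 were not. Limma 3.58.1 (R 4.3.3, eBayes with trend, two-sided) was fitted to log2(TPM + 1) in all 9 libraries with 1 mean per population, 6 residual and 3.21 prior degrees of freedom, and p-values were adjusted by Benjamini-Hochberg over all tested genes. Fold changes on this scale understate those of low genes. Code was tested on simulated data. The members and gene lists were chosen with earlier results of these data known. Genes were named by rule: the label markers, the 25 largest rises and falls outside the well-known lists (non-overlapping, at least 10 TPM), the 10 largest in mean TPM, the 10 largest transcription factor changes (at least 5 TPM), up to 4 per list and the 5 most variable among goblet-enriched libraries. Genes of the well-known lists were left out of the transcription factor rule too.

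The labels' replicate numbers were taken to pair the populations. Deviations of same-numbered goblet-enriched and Lgr5-enriched libraries from their population means correlated at 0.601, 0.525 and 0.404 across genes, and those of different numbers at -0.52 to 0.166. As deviations from a population's own mean cancel out, these values are not independent of each other. A shared mouse and a shared batch cannot be told apart by them. Positions are from GENCODE M21 (GRCm38) by symbol and promoters from RefSeq (GRCm38.p6). Alternatives were scaling, pseudocount, filters, libraries fitted, replicate block, array weights, each library left out, and limma-voom on recovered reads, the last chosen after seeing the data. A few genes that these rules name are not reported here.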

Additional observations from a re-analysis of the deposited data

How the results depend on the processing

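The number of genes called lower (3039) was 1549 with median-of-ratios scaling, 1941 with quantile normalization and 5661 with array weights. With the replicate block it was 4563 in 9 libraries and 5067 in the 6 compared, and 3036 and 3034 of the 3039 were shared. Leaving out 1 replicate gave 1571 (without Lgr5-enriched replicate 3) to 3189 (without enterocyte-enriched replicate 1, the library against its sex label), and leaving out replicate 1 of all 3 populations gave 4176. The number called higher (1384) ranged from 1089 to 1409 without 1 replicate and was 1556 without replicate 1 of all populations, 1839 with median-of-ratios scaling, 1883 with quantile normalization, 1950 with array weights, and 1794 and 1947 with the replicate block. Limma-voom on recovered reads called 1455 higher and 2483 lower. Of 266 called genes among those named by rule, 221 kept the call under each of the 19 alternatives and 45 lost it under at least 1; none of the 267 reversed. The replicate block ended no call of a named gene. Of 104 list counts, 33 stayed within 1.5 times under every alternative. A gene near 0.1 TPM rests on a few reads, so its fold is imprecise.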

Other observations

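Solute carriers, which move ions, metals and nutrients across membranes, gave 51 higher (21.6%, against 10.7% of all genes) and 52 lower (22%, against 23.6%) of 236 tested. With median-of-ratios scaling they gave 66 higher and 38 lower, and of all genes 14.3% were called higher and 12% lower. Slc12a8 stood at 561, 564 and 578 TPM in goblet-enriched and at 3.33, 4.70 and 4.43 TPM in Lgr5-enriched libraries (log2 fold change 6.80 ± 0.22, limma adjusted p = 3.26e-07), with little spread in either. Slc41a2, a magnesium transporter, stood at 55.0, 41.0 and 43.5 TPM against 2.86, 1.83 and 3.20 TPM (adjusted p = 6.97e-06).

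Phosphatases of the dual specificity and receptor types gave 12 higher (36.4%, against 10.7% of all genes) and 7 lower (21.2%, against 23.6%) of 33. Without Lgr5-enriched replicate 3 the lower count was 4, and 12.2% of all genes were called lower. Ptprn2, a receptor-type phosphatase of dense-core vesicles, stood at 70.1, 103 and 79.4 TPM against 1.39, 2.46 and 2.65 TPM (adjusted p = 1.97e-06). Kif12, a kinesin, fell from 44.3, 81.6 and 83.8 TPM to 2.65, 17.2 and 15.4 TPM (adjusted p = 0.00836). The C2H2 zinc finger gene Zfp9 stood at 85.4, 49.0 and 48.0 TPM against 2.83, 2.05 and 2.49 TPM (adjusted p = 0.000108), in a family with 9 of 321 called higher (2.8%) and 51 lower (15.9%), both below the shares of all genes.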
